A study of Mus musculus with 16 samples.

Results

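Ripor2, Cyp26b1, Ptprz1 and Pim1 are 4 of the 54193 genes counted in cultured mouse brain microvascular endothelial cells (mBMEC). They were chosen by their measured rise with rapamycin in wild-type (WT) cells, so that rise is given here as a description and carries no test. The rule did not use the response of cells that had lost Ccm3, also named Pdcd10, the gene mutated in one form of familial cerebral cavernous malformation, though that response was known when the 4 genes were put together and is no independent support. In those knock-out (KO) cells Pim1 rose 5.56-fold and passed the test. Ripor2 and Ptprz1 were 5.35-fold and 7.18-fold higher but missed the threshold, which they passed once the culture of origin was taken into account. Cyp26b1 stood at 1.11-fold and was called under none of the settings tried.

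Rapamycin blocks mTORC1, the kinase complex through which growth factors and nutrients drive protein synthesis and restrain autophagy. Ripor2 encodes a cytoplasmic protein known from the hair cells of the inner ear and from the control of cell shape and polarity. Cyp26b1 encodes a cytochrome P450 that breaks down all-trans retinoic acid, a ligand of nuclear receptors that acts in vascular and brain development. Ptprz1 encodes a receptor-type tyrosine phosphatase with a chondroitin sulfate bearing long form, best known from oligodendrocyte precursors and astrocytes, and it is inhibited by its ligands pleiotrophin and midkine. Pim1 encodes a serine/threonine kinase that is active without prior phosphorylation, and its transcription is often driven by JAK-STAT signalling. The libraries measure RNA, so they do not show whether the amount of PIM1 protein changed.

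The cells came from the brains of 8- to 10-week-old mice with 2 alterations, a floxed Pdcd10 allele (Pdcd10 fl/fl) and the transgene Cdh5(PAC)-CreERT2, in which the promoter of the endothelial gene Cdh5 drives a Cre recombinase that needs tamoxifen. All 16 libraries carry the floxed allele and the Cre transgene. KO cultures had been given 4-hydroxytamoxifen to delete Ccm3 and WT cultures had not, so exposure to that drug and loss of the gene cannot be told apart. The groups are untreated WT (3 libraries), WT with 10 µM propranolol (WT+P, 2), WT with 100 nM rapamycin (WT+R, 2), untreated KO (3), KO with propranolol (KO+P, 3) and KO with rapamycin (KO+R, 3), each drug being given for 24 h. Each replicate is a culture pooled from several brains, and the same replicate number is taken to mark the same culture across groups.

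Libraries held 18.83 M to 26.2 M counts. Pdcd10 stood at 9.72 to 11.0 counts per 1000000 (CPM, normalised by TMM) in KO and at 31.2 and 47.0 in WT replicates 2 and 3, but the library labelled WT replicate 1 held 11.5 CPM, the level of the KO libraries. The fitted differences of the 4 genes from WT are therefore also given without that library. Among treated groups, the fitted level of Pdcd10 in KO+R was 0.216 times that in WT+R, and in KO+P 0.313 times that in WT+P. Endothelial markers were high throughout, with Cdh5 between 2452 and 5186 CPM. In bulk RNA, fewer cells of a type and less RNA per cell cannot be told apart.

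The stretches before the starts of the 4 genes are shown because the counts of Ripor2 were assigned to different starts in different groups. The GC-rich stretches at Pim1 and Cyp26b1 can be compared with them. They are taken from RefSeq promoter windows of the GRCm38.p6 build, each found exactly once in GRCm39, and are given in GRCm39 coordinates, 5′ to 3′ on the strand of the gene, up to the first base of any transcript in the quantified set or of the RefSeq start. Capitals mark GGGCGG (the GC box), CCACCC and TATAAA on either strand. The lines are Ripor2 before the Ripor2-204 start (chr13:24765922-24766171, + strand), Ripor2 before the Ripor2-205 start (chr13:24822381-24822630, + strand), Cyp26b1 (chr6:84570891-84571042, − strand), Ptprz1 (chr6:22875251-22875357, + strand) and Pim1 (chr17:29709509-29709580, + strand).
Ripor2-204: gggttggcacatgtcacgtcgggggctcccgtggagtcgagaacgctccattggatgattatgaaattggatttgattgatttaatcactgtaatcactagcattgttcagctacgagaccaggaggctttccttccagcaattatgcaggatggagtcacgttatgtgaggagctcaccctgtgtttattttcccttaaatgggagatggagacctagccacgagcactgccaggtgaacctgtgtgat
Ripor2-205: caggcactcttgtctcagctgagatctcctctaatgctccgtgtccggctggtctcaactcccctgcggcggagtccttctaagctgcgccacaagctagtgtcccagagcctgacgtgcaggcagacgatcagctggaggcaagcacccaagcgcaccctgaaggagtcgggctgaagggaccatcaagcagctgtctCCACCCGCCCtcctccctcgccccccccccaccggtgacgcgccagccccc
Cyp26b1: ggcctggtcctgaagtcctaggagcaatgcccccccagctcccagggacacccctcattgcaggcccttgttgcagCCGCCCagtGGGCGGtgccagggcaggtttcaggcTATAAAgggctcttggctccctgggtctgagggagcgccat
Ptprz1: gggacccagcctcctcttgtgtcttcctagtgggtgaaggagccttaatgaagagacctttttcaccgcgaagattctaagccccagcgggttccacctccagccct
Pim1: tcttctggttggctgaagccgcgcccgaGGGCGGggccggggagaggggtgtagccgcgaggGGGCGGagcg

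Over the full windows of 300 bases, the one at Ripor2-204 was 50.3% G or C and held none of the 11 motifs searched, while the one at Ripor2-205 was 67.3% G or C with 2 GC boxes, and 1 CCACCC overlapping the first of them. The Cyp26b1 window (62.3% G or C) held 3 GC boxes and a TATAAA, the Ptprz1 window (71.7%) 2 GC boxes and the Pim1 window (81.3%) 7. Of 32841 RefSeq windows, whose median was 52.7% G or C, 35.7% held a GC box, 31.5% CCACCC and 13.6% TATAAA. No match was found in these 5 windows for TTCNNNGAA (STAT), GTAAACA (FOXO), AGGTCA (a retinoic acid receptor half-site), CACGTG (E-box), GGCGCC (SMAD), ACATTCC (TEAD), TGACTCA (AP-1) or TGACGTCA (CREB), which stood in 8.3%, 3.7%, 16.3%, 7.2%, 11.9%, 3.8%, 5.2% and 1.8% of all windows. A further Pim1 window at an internal start, not shown, held 1 GTAAACA and 1 CACGTG. A further Ripor2 window by the start of Ripor2-203, also not shown, was 50.0% G or C and held none of the 11 motifs. The start of Cyp26b1-205, to which most Cyp26b1 counts were assigned, has no window among those used here. Cyp26b1-201 and Cyp26b1-202, which start by the stretch shown, were given 0 counts in both WT+R libraries.

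Pim1 was the most abundant of the 4 and was higher with rapamycin in KO cells as well as in WT cells, where the rise had chosen it. Its gene lies at chr17:29709581-29715086 (GRCm39, + strand, ENSMUSG00000024014.10). The 3 WT libraries held 31.4, 17.5 and 20.1 CPM, and the 2 WT+R libraries 237 and 71.0. In KO the values were 18.5, 12.4 and 13.9 CPM, and in KO+R 145, 43.0 and 60.9. Every KO+R library stood above every KO library, and replicate 1 was the highest of its group in WT, WT+R, KO and KO+R alike. Measured against the untreated library of the same culture, KO+R was 7.84, 3.48 and 4.4 times as high. The fitted change from KO to KO+R was 2.48 on the log2 scale (SE 0.53, n = 3 and 3, edgeR adjusted p = 0.0364), and Pim1 was the only one of the 4 genes called, against 0.708% of 14838 genes called higher in that comparison.

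A call here means an adjusted p under 0.05 and a change above 1.5-fold. That of Pim1 fell short of the threshold when KO replicate 1, 2 or 3 or KO+R replicate 1 or 3 was left out (edgeR adjusted p = 0.108, 0.156, 0.151, 0.144 and 0.0686). Without KO+R replicate 1 the change was 1.83 on the log2 scale. With the culture as a block the adjusted p was 0.000232.

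Ripor2 was low in untreated cells and higher in every rapamycin library than in the untreated library of the same culture. The gene spans chr13:24685508-24917806 (+ strand, ENSMUSG00000036006.22). Raw counts were 17, 10 and 10 in WT, 285 and 79 in WT+R, 13, 9 and 6 in KO, and 66, 16 and 43 in KO+R. As CPM these were 0.782, 0.374 and 0.410 in WT, 12.75 and 3.39 in WT+R, 0.504, 0.342 and 0.267 in KO, and 3.50, 0.656 and 1.92 in KO+R. The lowest KO+R library lay above the highest KO library, but only by 0.656 against 0.504 CPM. Within cultures KO+R was 6.94, 1.92 and 7.19 times the KO level. The fitted difference was 2.42 on the log2 scale (SE 0.65, edgeR adjusted p = 0.0987) and so missed the threshold. With the culture as a block it was 2.27 and passed (edgeR adjusted p = 0.00582), and DESeq2, run without a block, gave an adjusted p of 0.0158. None of the 16 fits that left out 1 library called Ripor2 (edgeR adjusted p from 0.0601 to 0.33).

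Ptprz1 was the gene with the lowest counts in KO cells, which leaves its fold change poorly fixed. It lies at chr6:22875358-23054236 (+ strand, ENSMUSG00000068748.9). Raw counts were 22, 72 and 26 in WT, 517 and 323 in WT+R, 1, 21 and 4 in KO, and 53, 72 and 38 in KO+R. The CPM values were 1.01, 2.69 and 1.07 in WT, 23.1 and 13.9 in WT+R, 0.0387, 0.797 and 0.178 in KO, and 2.81, 2.95 and 1.69 in KO+R. KO and KO+R did not overlap. Relative to its own culture KO+R replicate 2 was 3.70 times as high, whereas the ratios of replicates 1 and 3 rest on 1 and 4 untreated counts and are not read here as fold changes. The fitted difference was 2.84 on the log2 scale (SE 0.80, 95% interval 1.12 to 4.57, edgeR adjusted p = 0.12). The block on culture gave 2.93 and a call (edgeR adjusted p = 0.022), and DESeq2 gave an adjusted p of 0.0057. Leaving out KO replicate 2, the highest KO library, gave 4.49 and a call (edgeR adjusted p = 0.0472). That was the only call among the 16 fits that left out 1 library (edgeR adjusted p from 0.0472 to 0.364).

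Cyp26b1, by contrast, differed little between KO+R and KO. The gene lies at chr6:84548396-84570890 (− strand, ENSMUSG00000063415.13). The WT libraries held 2.12, 2.5 and 2.34 CPM and the WT+R libraries 52.2 and 13.5. In KO the values were 1.01, 1.21 and 2.98 CPM and in KO+R 1.54, 0.779 and 3.43, so the groups overlapped over most of their range. In raw counts KO+R held 29, 19 and 77 against 26, 32 and 67 in KO. Within cultures KO+R was 1.52, 0.642 and 1.15 times KO, which is no common direction, while WT+R was 24.7 and 5.41 times WT, the first of these against the library labelled WT replicate 1. The fitted difference between KO+R and KO was 0.15 on the log2 scale (SE 0.66, edgeR adjusted p = 0.971), with a 95% interval from −1.28 to 1.58. The fitted change in WT was 3.82.

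The genotype difference in the rapamycin response was −3.67 on the log2 scale for Cyp26b1 (SE 0.98), −1.53 for Ripor2, −0.69 for Ptprz1 and −0.27 for Pim1. Without the library labelled WT replicate 1 it was −3.59, −1.91, −0.44 and −0.54 in the same order. It uses the WT and WT+R libraries on which the genes were picked, so it was not tested. The ratio of KO+R to WT+R in the same culture was 0.0294 and 0.0576 for Cyp26b1, 0.121 and 0.213 for Ptprz1, 0.274 and 0.193 for Ripor2, and 0.612 and 0.606 for Pim1. Both cultures gave nearly the same ratio for Pim1.

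**Figure D1:**
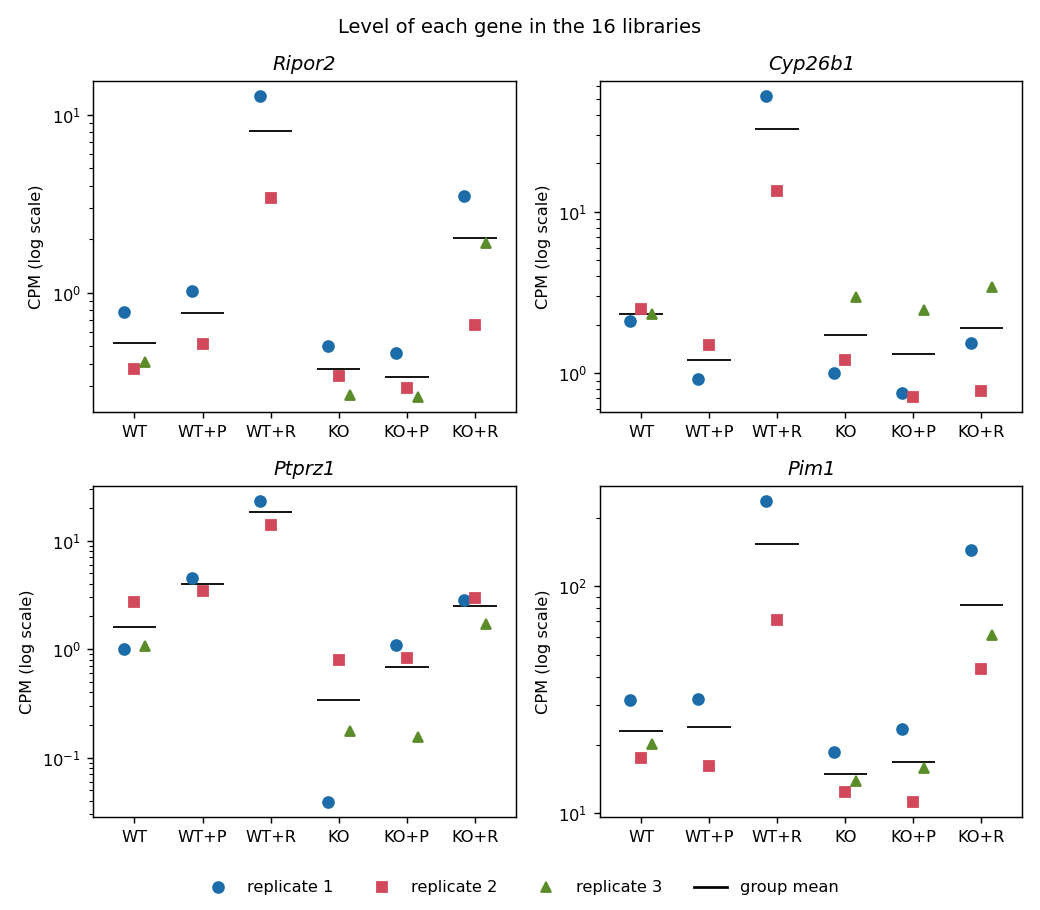
CPM (log scale) of the 4 genes in each of the 16 libraries, by group. Points are libraries, with shape and colour giving the replicate number, and bars are group means. Both WT+R libraries of each gene stand above all WT libraries, whereas the KO and KO+R libraries of Cyp26b1 share the same range.

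In WT cells the rise with rapamycin, which chose the genes, was 3.95 on the log2 scale for Ripor2 (SE 0.69), 3.82 for Cyp26b1 (SE 0.74), 3.53 for Ptprz1 (SE 0.80) and 2.75 for Pim1 (SE 0.57). Among 14838 genes ordered by fitted rise these ranked 24, 26, 33 and 52, in a comparison in which 0.647% of genes were called higher and 14% stood higher without overlap. Without the library labelled WT replicate 1 the values were 4.34, 3.76, 3.29 and 3.03. Without WT+R replicate 1 they were 2.7, 2.54, 3.12 and 1.63, so for Ripor2, Cyp26b1 and Pim1 the size of the rise, though not its direction, depended on 1 of the 2 WT+R libraries.

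KO and KO+R did not overlap for Ripor2, Ptprz1 and Pim1, which makes 3 of the 4 genes, against 10.9% of all tested genes that stood higher without overlap in this comparison. The genes were put together with these values known, so the count is a description. The median change of the 4 genes between KO+R and KO was 2.45 on the log2 scale, and that of all tested genes −0.02. With the block on culture 3 of the 4 genes were called, against 1.94% of genes called higher, and with DESeq2 the same 3, against 1.55%.

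**Figure D2:**
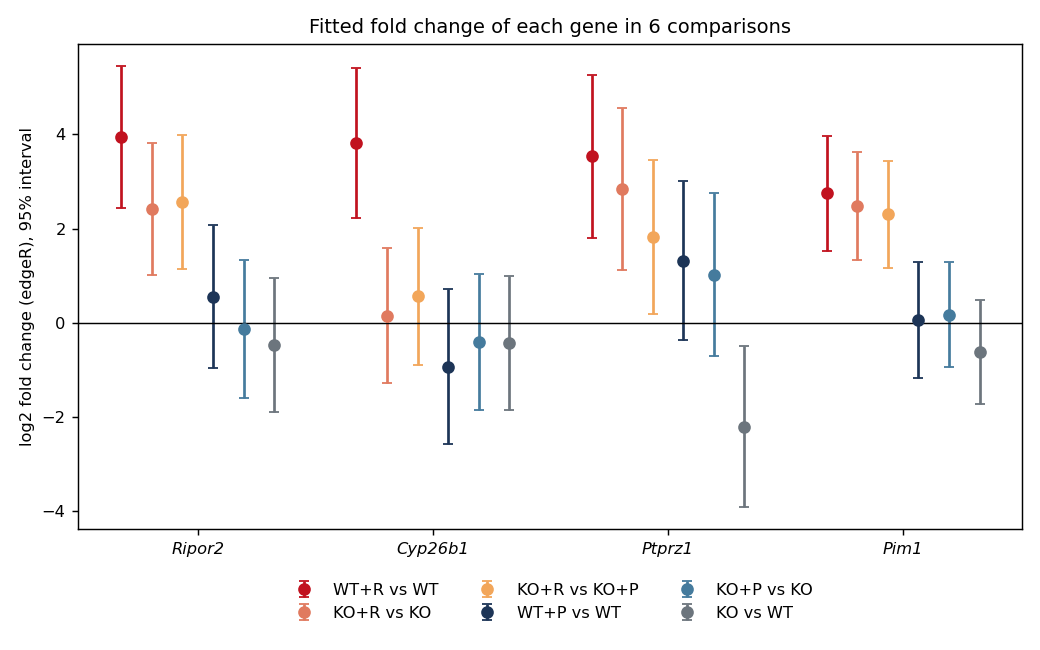
Fitted log2 fold change of each gene (edgeR, all 16 libraries in one fit) in 6 comparisons, with points as estimates and bars as 95% intervals. The WT+R vs WT values chose the genes. The interval of Cyp26b1 for KO+R vs KO runs from −1.28 to 1.58 and that of Pim1 from 1.33 to 3.62.

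Propranolol served as the second drug in the same cultures. None of the 4 genes was called between KO+P and KO by edgeR or by DESeq2, and none had an unadjusted p under 0.05 in edgeR. The fitted differences were −0.14 for Ripor2, −0.41 for Cyp26b1, 1.02 for Ptprz1 and 0.18 for Pim1 on the log2 scale (edgeR adjusted p = 0.948, 0.825, 0.605 and 0.906). In all, 1 gene was called in either direction in that comparison (0.00674% of those tested), 1870 had an unadjusted p under 0.05, and DESeq2 called 163. The KO+P libraries held 0.458, 0.292 and 0.258 CPM of Ripor2, and 23.4, 11.2 and 15.9 CPM of Pim1. Cyp26b1 stood at 0.749, 0.709 and 2.48 CPM, each below the KO library of its own culture, and Ptprz1 at 1.08, 0.834 and 0.155. For Ptprz1 the 95% interval reached from −0.71 to 2.76, so a rise of the fitted size was not detectable at these counts.

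In WT cells, where no test is given, propranolol left Pim1 at 31.8 and 16.1 CPM, 1.01 and 0.922 times the WT level of the same culture, which for the first is the library labelled WT replicate 1. Ptprz1 stood at 4.53 and 3.43 CPM in WT+P and at 1.01 to 2.69 in WT. Its fitted difference was 1.32 on the log2 scale (SE 0.78, 95% interval −0.37 to 3.00). Cyp26b1 stood at 0.925 and 1.5 CPM in WT+P and at 2.12 to 2.50 in WT, a fitted difference of −0.93 (SE 0.76, 95% interval −2.58 to 0.72).

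Set against each other in KO cells, rapamycin gave higher levels than propranolol for Ripor2 by 2.56 (SE 0.66, edgeR adjusted p = 0.0438) and for Pim1 by 2.30 on the log2 scale (SE 0.53, edgeR adjusted p = 0.0274). These 2 of 4 genes compare with 1.58% of genes called higher. Ptprz1 was higher by 1.82 (edgeR adjusted p = 0.186, and 0.0532 with the block on culture) and Cyp26b1 by 0.56 (edgeR adjusted p = 0.7). The call for Ripor2 held in 5 of 16 fits that left out 1 library, with adjusted p between 0.0315 and 0.153 over the 16. That of Pim1 held in 12 of 16 and was lost without KO+P replicate 1 or 2 or KO+R replicate 1 or 3 (edgeR adjusted p = 0.0631, 0.117, 0.104 and 0.0526). Without KO+R replicate 1 the difference for Pim1 was 1.65 and for Ripor2 1.93.

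Without any drug, the KO level lay below the WT level in the fit for all 4 genes, by 2.21 on the log2 scale for Ptprz1 (SE 0.79), and with values of −0.62 for Pim1, −0.47 for Ripor2 and −0.43 for Cyp26b1. Without the library labelled WT replicate 1 they were −2.45 for Ptprz1 (SE 0.85), −0.34 for Pim1, −0.08 for Ripor2 and −0.5 for Cyp26b1, so little was left of the difference for Ripor2. These values share the WT libraries with the choice of the genes and were not tested. For Ptprz1 the ratio of KO to WT in the same culture was 0.0383, 0.296 and 0.167, the first of them against the library labelled WT replicate 1. KO+R libraries of Ptprz1, at 1.69 to 2.95 CPM, overlapped the range of the untreated WT libraries, 1.01 to 2.69.

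Ordered by group mean, Ripor2 ran from WT+R (8.08 ± 6.62 CPM, SD, n = 2) and KO+R (2.02 ± 1.42, n = 3) to WT+P (0.765 ± 0.357, n = 2), WT (0.522 ± 0.226, n = 3), KO (0.371 ± 0.121, n = 3) and KO+P (0.336 ± 0.107, n = 3), and each neighbouring pair overlapped in range. Pim1 ran from 154 ± 118 CPM in WT+R and 83.0 ± 54.5 in KO+R through 24.0 ± 11.1 in WT+P, 23.0 ± 7.4 in WT and 16.8 ± 6.19 in KO+P to 14.9 ± 3.21 in KO, with the same numbers of libraries. For Pim1, KO+R (lowest 43.0 CPM) and WT+P (highest 31.8 CPM) were the only neighbours whose ranges did not overlap. Ptprz1 ran from WT+R (18.5 ± 6.55) through WT+P (3.98 ± 0.778) and KO+R (2.48 ± 0.689) to WT (1.59 ± 0.953), KO+P (0.690 ± 0.480) and KO (0.338 ± 0.404). Its first 3 groups were apart from each other and the rest overlapped. For Cyp26b1, WT+R (32.9 ± 27.4) stood clear of all other groups, whose means ran from 2.32 ± 0.194 in WT to 1.21 ± 0.406 in WT+P.

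Per unit of transcript length, as transcripts per 1000000 (TPM), Pim1 was also the highest, with group means of 14.6 in WT, 91.8 in WT+R, 9.62 in KO and 47.6 in KO+R. Cyp26b1 reached 11.3 TPM in WT+R and 0.65 in KO+R, Ptprz1 4.99 and 0.591, and Ripor2 2.54 and 0.578. In untreated KO cells the last 3 genes lay between 0.0777 and 0.63 TPM.

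The counts of Ripor2 were assigned to different transcripts in different groups. Ripor2-204 starts at position 24766172 of chromosome 13 and Ripor2-205 starts 56.5 kb further downstream. In the 3 WT libraries 17 of 17, 6 of 10 and 9 of 10 counts went to Ripor2-204, and in KO all 13, 9 and 6. In WT+R, 230 of 285 and 59 of 79 went to Ripor2-205 and none to Ripor2-204. KO+R replicates 1 and 3 were like WT+R, with 50 of 66 and 37 of 43 counts on Ripor2-205, but KO+R replicate 2, the library with the smallest rise, had 14 of 16 on Ripor2-204. Both WT+P libraries also had most counts on Ripor2-205, 20 of 22 and 12 of 13, although their levels overlapped those of WT. The 3 KO+P libraries had 0 of 11, 7 and 5 counts on Ripor2-205 and 5, 4 and 5 on Ripor2-204. In KO+P replicate 2, 3.2 counts went to Ripor2-208, which starts at 24822696, close to the Ripor2-205 start at 24822631. Ripor2-203, which starts between the 2 at position 24798593, took 50.7 and 11.5 counts in WT+R and 16.5, 2.4 and 6.1 in KO+R. In KO+P replicate 1 it took 6.1 counts. Ripor2-214, which starts upstream at 24685508, took 4.0 counts in WT replicate 2 and 9.0 in WT+R replicate 2. The counts thus did not lie on 2 starts alone. Most exons of these transcripts are shared, so the assignment by the quantifier rests on few fragments, and no test was made of it.

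**Figure D3:**
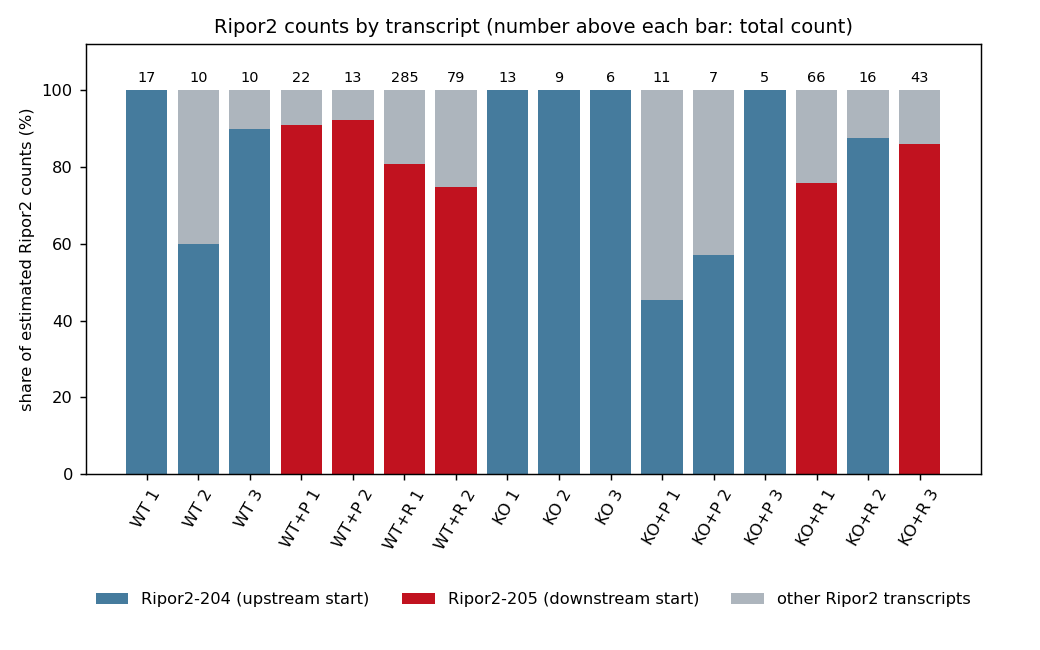
Share (%) of the estimated Ripor2 counts given to Ripor2-204, Ripor2-205 and all other Ripor2 transcripts in each library, with the total count above the bar. All untreated libraries have their largest share on Ripor2-204, and both WT+R libraries and 2 of 3 KO+R libraries on Ripor2-205.

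Pim1-201 was the main transcript of Pim1 in every library, with a mean of 95.6% of the Pim1 TPM. Cyp26b1-205 took a mean of 81.7% of the Cyp26b1 TPM and was the main form in all libraries but KO replicate 2, where it took 41.8% and Cyp26b1-204 took 58.2%. Ptprz1-204, a form of 4947 bases, took a mean of 67.8% of the Ptprz1 TPM against 30.0% for the full-length Ptprz1-201 of 8068 bases. Ptprz1-204 was at 0 in KO replicate 2 and KO+P replicate 3, which held 21 and 3 counts of the gene, and at 49.6% in KO+R replicate 2.

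Libraries did not mark strand, and 13.9% of the exonic bases of Pim1 overlap Gm26885 on the other strand. Gm26885 itself stood at 0 to 0.477 CPM, so little of the Pim1 signal was assigned to it, though reads in the shared bases cannot be split by strand. For Ripor2, 2.8% of exonic bases overlap C530050E15Rik on the other strand, and Cyp26b1 and Ptprz1 overlap no annotated exon of another gene. The nearest protein-coding genes on either side were Cmah and Armh2 (Ripor2), Dysf and Exoc6b (Cyp26b1), Fam3c and Aass (Ptprz1) and Fgd2 and Tmem217b (Pim1). Among these, 5 had enough counts to be tested. None was called between KO+R and KO, with changes from −1.51 (Aass) to 0.07 (Cmah) on the log2 scale and edgeR adjusted p of 0.443 or more.

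The genes around the 4 in their pathways were looked at in 10 lists, in which 76 other genes had enough counts to be tested. Rarb, Stra6, Dhrs3, Crabp2 and Cyp26a1 stand in more than 1 list. Between KO+R and KO, Eif4b and Lifr rose and Rarres1 fell, in a comparison in which 0.708% of all tested genes were called higher and 0.802% lower. An unadjusted p under 0.05 was found for 13 of the 76, and for 12.5% of all tested genes. With the block on culture Cdkn1b and Pim3 were also called higher and Cxcr4 lower, against 1.94% and 3.04% of all tested genes. Between WT+R and WT, Lifr rose and Rarres1 and Ptprm fell, against 0.647% called higher and 0.748% lower, and Lifr alone was called without the library labelled WT replicate 1. The block left Ptprm uncalled there and added Eif4b and Ptprd as higher and Cxcr4 and Ripor3 as lower, against 2.18% and 2.39%.

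Around Ripor2, neither of the 2 other genes of the RIPOR family was called by edgeR or DESeq2 between KO+R and KO, where 1 had an unadjusted p under 0.05 in edgeR. Ripor1, the ubiquitous family member, was at −0.09 on the log2 scale (SE 0.16, edgeR adjusted p = 0.9). Ripor3 was at −2.47 (SE 0.95, edgeR adjusted p = 0.291), but it did not exceed 0.868 CPM in any library and was at 0 in both WT+R libraries. It was called lower in WT+R than in WT by edgeR with the block on culture, and not without the block or by DESeq2.

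Around Cyp26b1, the median of the 9 tested genes of retinoic acid synthesis and transport was −0.65 between KO+R and KO and −1.26 between WT+R and WT. None of the 9 was called by edgeR or DESeq2 in either comparison, and those with an unadjusted p under 0.05 in edgeR numbered 0 and 1. Rdh10, which oxidises retinol to retinal, had the smallest p of the list in KO (0.31, SE 0.16, edgeR adjusted p = 0.475). The sister enzyme Cyp26a1 was near the limit of counting, at 0.0380 to 0.155 CPM in KO and 0.123 to 0.688 in KO+R (2.03, SE 0.90, edgeR adjusted p = 0.37), and Cyp26c1 did not exceed 0.138 CPM. The 5 tested retinoic acid receptors lay between −0.13 and 0.28 (Rxrb, with the smallest p of the list, edgeR adjusted p = 0.413), with no call by edgeR or DESeq2 and no unadjusted p under 0.05 in edgeR. Of 7 tested genes known to be induced by retinoic acid, Rarres1 alone was called. It fell by 2.87 on the log2 scale in KO+R (SE 0.56, edgeR adjusted p = 0.0246) and by 2.92 in WT+R (SE 0.65, edgeR adjusted p = 0.0469). The first call was lost without KO replicate 1 or 3 or any 1 KO+R library (edgeR adjusted p from 0.0559 to 0.103), and the second in 10 of 16 fits that left out 1 library, among them every one that left out a WT or WT+R library (edgeR adjusted p from 0.0514 to 0.374). It was also lost with the length offset (0.0538) and with only the groups compared (0.104).

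Around Ptprz1, pleiotrophin (Ptn) did not exceed 0.0516 CPM and was not tested, and midkine (Mdk) was at 0.17 (SE 0.77) between KO+R and KO. None of the 11 tested ligands and partners was called by edgeR or DESeq2 there, and 1 had an unadjusted p under 0.05, Ncl (0.31, edgeR adjusted p = 0.243). Among 10 tested receptor-type phosphatases none was called by edgeR or DESeq2 in KO, where 2 had an unadjusted p under 0.05. Ptprm, which joins endothelial cells through its extracellular part, fell by 0.59 on the log2 scale in WT+R (SE 0.12, edgeR adjusted p = 0.0264). In KO+R it stood at −0.52 (edgeR adjusted p = 0.0268), inside the 1.5-fold limit.

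Around Pim1, the related kinase Pim3 stood at 136, 67.0 and 95.8 CPM in KO and at 369, 158 and 247 in KO+R, a difference of 1.37 on the log2 scale (SE 0.40, edgeR adjusted p = 0.132) that was called with the block on culture (edgeR adjusted p = 0.00532). In WT+R Pim3 stood at 0.49 (SE 0.43, edgeR adjusted p = 0.733), and at −0.23 without WT+R replicate 1. Pim2 was at −0.24 in KO+R (SE 0.22). Of 13 proteins phosphorylated by PIM kinases, Eif4b, a factor that helps unwind mRNA at the start of translation, rose by 0.84 (SE 0.11, edgeR adjusted p = 0.00343). It was at 0.56 in WT+R, under the 1.5-fold limit. Of 20 genes of the JAK-STAT response, Lifr, the receptor of leukaemia inhibitory factor, rose by 1.28 in KO+R (SE 0.20, edgeR adjusted p = 0.00836) and by 1.22 in WT+R (SE 0.22, edgeR adjusted p = 0.0177). The median of the list was 0.07 in KO and 0.22 in WT. The call of Lifr in KO+R was lost without KO replicate 3 (edgeR adjusted p = 0.0523), and that in WT+R without WT replicate 2 or 3 or WT+R replicate 2 (0.051, 0.0628 and 0.135).

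**Figure D4:**
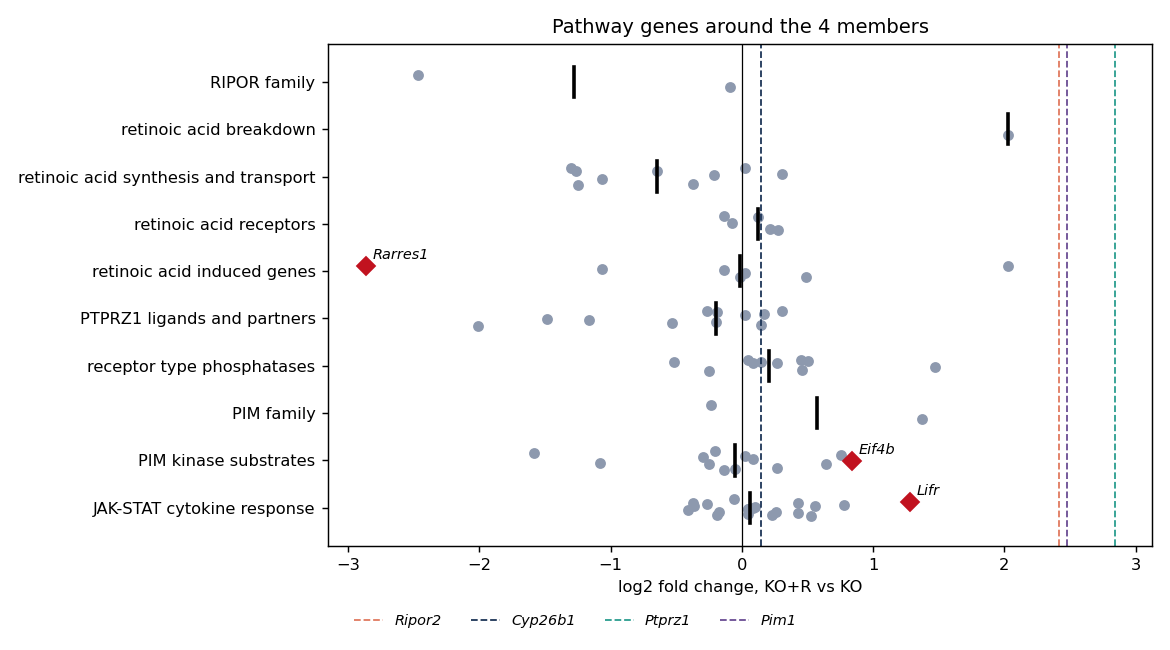
Log2 fold change between KO+R and KO of the tested genes of 10 pathway lists, with 1 point per gene, diamonds for called genes and black bars for list medians. Dashed lines give the 4 genes. The lines of Ripor2, Ptprz1 and Pim1 stand to the right of every listed gene, and that of Cyp26b1 near 0.

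The genes whose levels followed each of the 4 most closely over the 16 libraries, by Pearson's r of log2 CPM, are a description, since all points share cultures and treatments. The 16 libraries include the WT and WT+R ones on which the 4 genes were picked, so r among the 4 is partly set by that choice. Ripor2 and Pim1 followed each other with r = 0.96, and Pim1 was the gene most like Ripor2 of all tested. Next for Ripor2 were Csnk1e (0.96), Acvr1b (0.946), Lmbr1l (0.943) and Echdc3 (0.931). For Pim1 they were Lmbr1l (0.985), Tor2a (0.967), Ripor2, Calcoco1 (0.963) and Pnpla2 (0.961). Ptprz1 was followed most closely by Lpar4 (0.963), Ccn2 (0.948), Myl9 (0.924), Ankrd1 (0.923) and Picalm (0.92). For Cyp26b1 the closest genes were less alike, C2cd3 (0.842), Ptchd4 (0.822), Gm14964 (0.814), Gypc (0.81) and Chst2 (0.804). Of these, Ptchd4 and Gm14964 were near the limit of counting, at means of 0.293 and 0.140 CPM. With the mean of each replicate number removed the order changed. Csnk1e (0.965) then came before Pim1 (0.959) for Ripor2, and the genes closest to Cyp26b1 were Sema3e (0.893), Adam9 (0.88) and Ptchd4 (0.875). Of the 5 closest genes, 2 stayed for Ripor2 and for Ptprz1 and 1 for Cyp26b1 and for Pim1. Among the 4 genes r was lowest between Cyp26b1 and Ptprz1, at 0.56.

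Markers of other cells moved with rapamycin in part, and their part in the results was not tested. The summed level of 12 mural cell markers was 96.7 to 863 CPM in WT and 1465 to 2566 in WT+R, and 72.2 to 211 in KO and 275 to 453 in KO+R, without overlap in either genotype. Tagln and Acta2 made up most of that sum. Of all tested genes, 10.9% stood higher without overlap in KO+R and 14% in WT+R. The median of the mural list was 0.22 on the log2 scale in KO+R and 0.48 in WT+R. In KO+R Tagln was at 1.26 and Notch3 at −1.35, and in WT+R Notch3 was at −1.17, none of them called. Acta2 rose by 2.74 on the log2 scale in WT+R (edgeR adjusted p = 0.0469) and stood at 1.6 in KO+R (edgeR adjusted p = 0.231). The call in WT+R was lost in 9 of 16 fits that left out 1 library, over which the adjusted p ran from 0.0199 to 0.225 (0.112 without the library labelled WT replicate 1), with the length offset (0.0538) and with only the groups compared (0.224). In WT+R Tagln was at 2.26, Cnn1 at 2.14, Myh11 at 1.87, Pdgfrb at 0.31 and Rgs5 at −2.89, none of them called, and Pdgfrb stood at 1.23 to 6.59 CPM and Rgs5 at no more than 1.69 over all libraries. The 8 markers of oligodendrocyte precursors, a cell type known for Ptprz1, summed to 1.20 to 6.95 CPM over all libraries, with 3.70 to 5.17 in WT and 3.61 to 3.89 in WT+R, and Neu4 was at 0 in all. The 8 astrocyte markers summed to 33.8 to 79.5 CPM in WT and 40.1 to 70.7 in WT+R, and to 42.5 to 72.3 in KO and 37.5 to 62.0 in KO+R. Sums of 7 oligodendrocyte markers were 40.9 to 52.9 CPM in WT, 32.4 to 33.0 in WT+R, 48.9 to 58.7 in KO and 36.0 to 42.3 in KO+R. The 7 lymphocyte markers summed to 5.90 to 15.4 CPM in WT, 0.988 to 1.57 in WT+R, 4.48 to 7.17 in KO and 1.65 to 2.59 in KO+R. The 9 markers of microglia and macrophages stood at 5.34 to 14.0, 1.88 to 6.27, 9.88 to 26.7 and 3.50 to 10.3 CPM in the same 4 groups. Cd79a was called lower in WT+R (−3.38 on the log2 scale, edgeR adjusted p = 0.0264), also with the block and with DESeq2. It was not called without the library labelled WT replicate 1, and in KO+R it stood at −1.53 (edgeR adjusted p = 0.218). Csf1r stood at −4.07 in KO+R (edgeR adjusted p = 0.0537) and was called lower there with the block and by DESeq2. The block also called Cd68 lower in both genotypes. The 8 fibroblast markers summed to 20.8 to 99.7 CPM in WT, 9.00 to 38.3 in WT+R, 12.2 to 151 in KO and 6.99 to 203 in KO+R, with Lum and Dpt at 0 in all, and the 7 neuron markers to 14.0 to 70.0, 34.0 to 94.6, 38.6 to 62.7 and 62.9 to 83.6. The 15 endothelial markers summed to 14730 to 17430 CPM in WT and 15920 to 16310 in WT+R, and to 15940 to 17760 in KO and 16630 to 18970 in KO+R. Among them Eng, a co-receptor for TGF-beta family ligands, rose by 0.98 on the log2 scale in KO+R (SE 0.20, edgeR adjusted p = 0.0316) and by 1.26 in WT+R (edgeR adjusted p = 0.0175). These calls were lost without any 1 KO or KO+R library (edgeR adjusted p from 0.0678 to 0.137), and without WT replicate 1 or 3 or either WT+R library (from 0.0536 to 0.173). The median of the endothelial list was −0.021 in KO+R and −0.175 in WT+R. In WT+R Cdh5 stood at −0.68 (edgeR adjusted p = 0.0874), Cldn5 at −0.99 (0.245) and Emcn at 0.80 (0.0846). DESeq2 called Cdh5 lower and Emcn higher there, and the block on culture called Emcn higher.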

How the data were processed

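RNA of 16 mBMEC samples was purified with poly-T beads and sequenced without strand information. The deposited files hold, per transcript, estimated counts, TPM and an effective length from Salmon (1.5.2 in the submitters' processing notes), computed by the authors before deposit. Those notes also list Trim Galore 0.6.7, HTSeq 0.13.5 and DESeq2 1.34.0, and the build GRCm39. The transcript set used for quantification is not given in the sources used here. Transcripts were matched by identifier to GENCODE vM39, which named 99.12% of 140789, and 0.39 to 0.57% of counts per library were left out as unmatched. Estimated counts were summed per gene and rounded.

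Genes passing edgeR's filterByExpr (14838) were normalised by TMM and fitted in 1 quasi-likelihood model over 6 groups with 10 residual degrees of freedom (edgeR 4.0.16, R 4.3.3), with Benjamini-Hochberg adjustment over all of them. CPM values use the TMM library sizes. Promoter motifs were counted with Python, and figures were drawn with matplotlib. The fitting code was tested on simulated data. Counts were also tested with DESeq2 1.42.0, and further alternatives were another scaling, no filter, an offset for effective length, only the groups compared, and leaving out each library. The values of KO against WT, and of the genotype difference in response, without WT replicate 1 were added after the data were seen. The p-values of the main fit, which holds no term for culture, measure the spread between the cultures of a group. Those with the block measure the spread left after culture differences are removed.

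Same-numbered libraries deviated together from their group means, with correlations across genes of 0.41 to 0.62 between KO+R and KO, 0.31 to 0.58 between KO+P and KO, 0.33 to 0.55 between KO+R and KO+P and 0.19 to 0.62 between KO and WT, so the numbers were taken to pair the cultures. The pairing comes from the labels' replicate numbers. Differently numbered libraries were not compared, so this check alone cannot show that the numbers mark cultures. The results with the block and the ratios within cultures rest on this pairing.

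The 4 genes and all lists were chosen with earlier results of these data known. Some genes listed around Ripor2 are not reported here. Named were the 4 genes, all Ripor, Cyp26 and Pim genes, of each pathway list up to 4 genes called between KO+R and KO or else the one with the smallest p, the 5 genes most like each of the 4, their neighbours and Pdcd10. Other genes named (Ptn, Mdk, Ptprm in WT, Eng, Acta2 and other single marker genes) were added after their values were seen.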

Additional observations from a re-analysis of the deposited data

How the results depend on the processing

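All 16 alternatives that left out 1 library and 7 others were run. For KO+R against KO, the replicate block gave 2.27 for Ripor2 and 2.93 for Ptprz1 on the log2 scale, both then called, and 739 genes called in place of 224. DESeq2 gave 2.45, 2.88 and 473, and DESeq2 with the block 2.31, 3.03 and 1123. Pim1 was not called with an effective length offset (2.49) or with only the groups compared (2.5), at adjusted p of 0.053 and 0.0506. For KO+R against KO+P, the count of 606 became 1428 with the block, 1116 with DESeq2, 1800 with DESeq2 and the block, and 101 with only the groups compared. In the last, Ripor2 (2.57) and Pim1 (2.32) were not called. Ripor2 was also not called with the length offset (2.05), and Ptprz1 was called with DESeq2 and the block (2.0). For KO+P against KO, the count of 1 became 52 with no filter, 21 with the block, 163 with DESeq2, 933 with DESeq2 and the block and 0 with only the groups compared, and the value of Ripor2 reversed to 0.57 with the length offset. For WT+R against WT, the count of 207 became 677 with the block, 541 with DESeq2, 980 with DESeq2 and the block and 8 with only the groups compared. The block changed no other call of the 4 genes. The cause of these shifts was not tested.

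Leaving out each library gave counts of 51 to 247 for KO+R against KO, 208 to 1173 for KO+R against KO+P, 1 to 332 for KO+P against KO and 25 to 258 for WT+R against WT. On the log2 scale, KO+R against KO ranged over 1.8 to 2.86 for Ripor2, −0.57 to 0.78 for Cyp26b1, 2.32 to 4.49 for Ptprz1 and 1.83 to 2.81 for Pim1. For Cyp26b1 it was −0.12 and −0.05 without KO replicates 1 and 2 and −0.57 without KO+R replicate 3. KO+R against KO+P ranged over 1.93 to 3.0, −0.17 to 1.39, 1.37 to 2.28 and 1.65 to 2.63. KO+P against KO ranged over −0.42 to 0.14, −1.24 to 0.22, 0.5 to 2.67 and −0.14 to 0.4, and WT+R against WT over 2.7 to 4.61, 2.54 to 4.49, 3.12 to 4.15 and 1.63 to 3.37. Of the 16 single-library refits between KO+R and KO, 11 kept the call of Pim1, 1 called Ptprz1 and 0 called Ripor2. Ripor2 and Ptprz1 rest on at most 21 counts per untreated KO library, which limits their fold changes.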
